A study of Arabidopsis thaliana with 6 samples.

Results

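ATMDAR2 (AT5G03630), a monodehydroascorbate reductase, and GR1 (AT3G24170), a glutathione reductase, were followed in Arabidopsis thaliana seedlings exposed to the explosive 2,4,6-trinitrotoluene (TNT). The members were the probe sets that the platform annotation pairs with either gene alone, which gave 2 of the 22810 probe sets on the array, 250916_at for ATMDAR2 and 257252_at for GR1, in a table that pairs probe sets with 13286 single genes in all. Whole seedlings of wild type Col-0 (stock N1093) had been kept for 13 days in shaken liquid medium with sucrose, 10 seedlings to a flask of 100 ml, in a 16 h photoperiod. The DMF group received 60 µl of the solvent dimethylformamide and the TNT group received TNT at 60 µM in the same volume of solvent, and RNA was taken after 6 h in both. Each group had 3 samples, each hybridised to 1 Affymetrix ATH1 array. The labels do not say whether the samples came from separate flasks, so the p-values rest on a spread between samples that may be technical only.

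Both enzymes are flavoproteins that recycle an antioxidant at the expense of NAD(P)H. Monodehydroascorbate reductases return the radical left when ascorbate is oxidised to ascorbate, and glutathione reductases return glutathione disulfide to glutathione. In the ascorbate-glutathione cycle the 2 recycling steps stand beside ascorbate peroxidase, which spends ascorbate on hydrogen peroxide, and dehydroascorbate reductase, which spends glutathione. The products of ATMDAR2 and GR1 are mainly cytosolic, while other genes of both families serve plastids and mitochondria. In Arabidopsis a monodehydroascorbate reductase of the organelles is known to reduce TNT itself, and glutathione is the co-substrate with which plants conjugate TNT.

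The array labelled TNT replicate 2 stood apart from the other TNT arrays. Over the 13648 probe sets tested, it correlated with DMF replicate 2 at r = 0.974 and with TNT replicates 1 and 3 at 0.878 and 0.893, while TNT replicates 1 and 3 correlated with each other at 0.969 (across probe sets, which are not independent replicates). DMF replicate 2 in turn correlated with DMF replicates 1 and 3 at 0.928 and 0.948, while those correlated with each other at 0.969. Median signals were 50.8 on DMF replicate 2, 48.7 on TNT replicate 2 and 40.1 to 43.6 on the other arrays. Results are therefore given over all 6 arrays and without TNT replicate 2, where DMF replicate 2 was kept. The ubiquitin controls had 3′ over 5′ signal, as log2 ratios, between 0.83 and 0.87 on DMF arrays and between 0.63 and 0.72 on TNT arrays. The actin ratios averaged 0.51 in both groups, and the GAPDH ratios 0.05 with DMF and 0.08 with TNT. For actin and GAPDH the groups overlapped. Markers fixed for the labelled tissue were present on every array. The 2 leaf markers with a probe set of their own (of 6) had summed signals of 4336 to 4993 with DMF and 3178 to 3910.5 with TNT, and the 3 root markers (of 6) had 2826 to 3441 and 2690 to 3268, with no marker at 0. PYK10 made up most of the root sum, at 2690 to 3339 with DMF and 2598 to 3214 with TNT. EXPA7 had 36 to 63 with DMF and 18 to 44 with TNT, and EXPA18 had 61 to 72 and 23 to 47. Without TNT replicate 2, 1 leaf marker (PRK, log2 difference -0.71) and 1 root marker (EXPA18, -1.35) fell and the other 3 did not pass. Among those 3, EXPA7 stood at -1.22 (limma adjusted p = 0.061). The part of these controls and markers in the results was not tested.

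ATMDAR2 signal stood high on 2 of the 3 TNT arrays. On the linear MAS5 scale (the authors' background-corrected probe set signal, in arbitrary units) it was 319, 269 and 347 in DMF replicates 1, 2 and 3, and 892, 293 and 1100.2 in TNT replicates 1, 2 and 3. TNT replicates 1 and 3 thus exceeded the highest DMF array 2.57-fold and 3.18-fold, whereas TNT replicate 2 lay inside the DMF range, so the groups overlapped. In whole-seedling RNA a higher level per cell and more cells of an expressing type cannot be told apart.

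**Figure D1:**
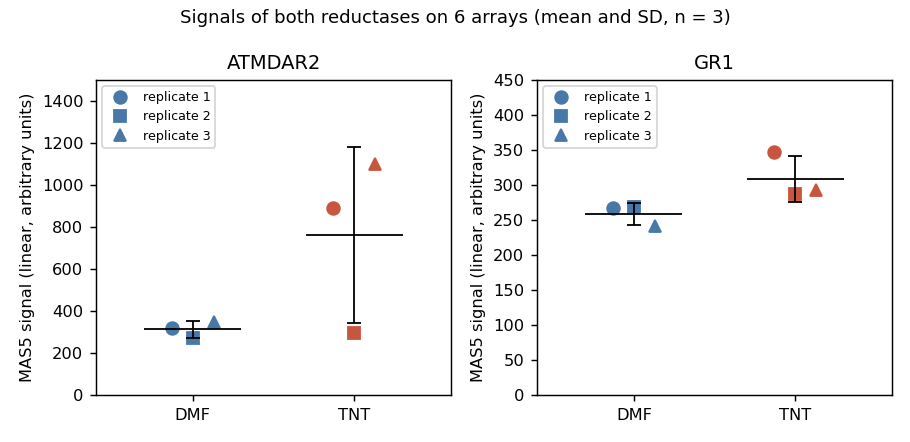
MAS5 signal (linear, arbitrary units, from 0) of ATMDAR2 and GR1 on each array, with the replicate number as the symbol shape and the mean and SD of each group (n = 3) as a line and bars. ATMDAR2 lies at 892 and 1100.2 on 2 TNT arrays and at 293 on the third, while GR1 lies between 241 and 269 with DMF and between 287 and 347 with TNT.

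The spread of ATMDAR2 was wide among treated samples but not among controls. Its log2 signal was 8.28 ± 0.19 (SD, n = 3) with DMF and 9.37 ± 1.03 (SD, n = 3) with TNT. The DMF spread lay a little under the median over all tested probe sets, 0.22, and 59.5% of them had a wider spread among the DMF arrays. Among the TNT arrays 2.26% of tested probe sets had a wider spread. The log2 difference over all 6 arrays was 1.09 ± 0.45 (SE), a 2.13-fold higher mean with TNT with a 95% interval of 1.04-fold to 4.36-fold. It did not pass in limma after Benjamini-Hochberg adjustment over all tested probe sets (adjusted p = 0.552, unadjusted p = 0.0414). An exact permutation test of the 6 log2 signals gave p = 0.3 (two-sided), where 0.1 is the smallest that 3 against 3 arrays allow. No probe set passed in that comparison (0%), and 1202 had an unadjusted p under 0.05. With the replicate number as a block the adjusted p was 0.222.

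Without the array labelled TNT replicate 2, ATMDAR2 rose 3.20-fold, with a 95% interval of 2.42-fold to 4.22-fold (log2 difference 1.68 ± 0.17 SE, limma adjusted p = 0.00183). In that comparison 4.01% of tested probe sets were called upward and 7.36% in either direction. That array was left out because of its values, which shrinks the spread among TNT samples, and the p-value may be too small for that reason. The call also held without both arrays numbered 2 (2.98-fold, adjusted p = 0.00228), where 5.55% were called upward. It held over all 6 arrays with array weights, which gave TNT replicate 2 a weight of 0.26 and DMF replicate 3 one of 5.04 (2.85-fold, adjusted p = 0.00363), where 10.1% were called upward. The weights were drawn from the same values, and both fits again lower the part of TNT replicate 2. The caution on the p-value therefore applies to them too.

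Taken pair by pair, the log2 difference of ATMDAR2 was 1.48, 0.12 and 1.67 in replicates 1, 2 and 3. In pair 1, 1.95% of tested probe sets had a difference as high or higher, and in pair 3, 1.45% did. In pair 2 that share was 29.2%, so ATMDAR2 stood within the bulk of the probe sets there. Across all 6 arrays its difference ranked 227th from the top of the 13648.

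GR1 stood a little higher on every TNT array. Its signal was 267, 269 and 241 in DMF replicates 1, 2 and 3, and 347, 287 and 292 in TNT replicates 1, 2 and 3. Every TNT array exceeded every DMF array, and the lowest TNT array stood 1.07-fold above the highest DMF array. In 6.28% of tested probe sets every TNT array likewise lay above every DMF array. The 3′ over 5′ ubiquitin ratio also separated the groups, while the actin and GAPDH ratios did not. The part of these ratios in the GR1 values was not tested.

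The log2 signal of GR1 was 8.01 ± 0.09 (SD, n = 3) with DMF and 8.26 ± 0.15 (SD, n = 3) with TNT. Its log2 difference was 0.25 ± 0.15 (SE) over all 6 arrays, a ratio of 1.19 with a 95% interval of 0.938 to 1.51, and it did not pass in limma (adjusted p = 0.683, unadjusted p = 0.13). The exact permutation test gave p = 0.1 (two-sided), the smallest this design can give. Pair differences on the log2 scale were 0.38, 0.09 and 0.28 in replicates 1, 2 and 3. All 3 were above 0, as they were for 18.8% of tested probe sets. Without TNT replicate 2 the ratio was 1.23, with an interval of 0.965 to 1.57 (adjusted p = 0.297). An increase of over 1.57-fold thus lay outside the interval in either comparison, whereas no difference at all lay inside both.

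The changes of both genes were set against each other through the log2 ATMDAR2 signal minus the log2 GR1 signal on each array. This quantity was 0.26, 0.00 and 0.52 in DMF replicates 1, 2 and 3, and 1.36, 0.03 and 1.91 in TNT replicates 1, 2 and 3. It was higher with TNT by 0.84 on average (exact permutation p = 0.3, two-sided), so over all 6 arrays the change of ATMDAR2 was not shown to exceed that of GR1. Without TNT replicate 2 the difference was 1.38 (exact permutation p = 0.1, the smallest that 2 against 3 arrays allow). Without TNT replicate 3 it was 0.44 (exact permutation p = 0.6), so the size turned on single TNT arrays. In replicate 2 the pair differences of ATMDAR2 and GR1 were 0.12 and 0.09.

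**Figure D2:**
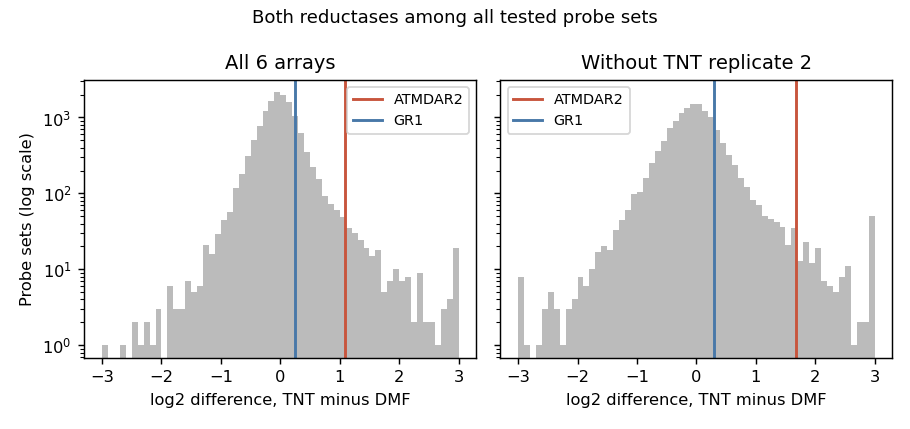
Number of probe sets (log axis) by log2 difference between TNT and DMF, over all 6 arrays on the left (13648 probe sets) and without TNT replicate 2 on the right (13545 of them that were tested there too), with values beyond 3 in either direction drawn in the end bins. ATMDAR2 lies at 1.09 and 1.68, in the upper tail, and GR1 at 0.25 and 0.30, on the shoulder of the main peak.

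A few other probe sets had the same shape as ATMDAR2. On 85 of the 13648 (0.623%), ATMDAR2 included, TNT replicates 1 and 3 lay at least 2-fold above the highest DMF array while TNT replicate 2 lay inside the DMF range. Wherever TNT replicate 2 lay, TNT replicates 1 and 3 were that high on 1.66% of tested probe sets. This shape was defined after the ATMDAR2 values had been seen. TNT replicate 2 lay inside the DMF range for 53.3% of all tested probe sets.

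Both glutathione reductase genes of the annotation could be set side by side. GR (AT3G54660), the plastid and mitochondrial glutathione reductase, gave 297, 249.8 and 375 as its signals in DMF replicates 1, 2 and 3, against 289, 333 and 273 in the TNT samples. Its TNT arrays all lay inside the DMF range. The log2 difference was -0.03 over all 6 arrays (95% interval -0.46 to 0.41; limma adjusted p = 0.981). It was -0.11 once TNT replicate 2 was left out (adjusted p = 0.797). A difference between GR and GR1 in their response was not tested. Of the 5 monodehydroascorbate reductase genes listed, only ATMDAR2 had a probe set of its own in the annotation used here. The other 4 were not analysed, and whether unnamed probe sets on the array match them was not examined.

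The wider ascorbate and glutathione pathway was described from 11 lists of 58 genes. Only 14 had a probe set of their own, and all of these passed the filter on low signal. The other 44 were not analysed, among them every gene listed for dehydroascorbate reductase, glutathione synthesis, superoxide dismutase, catalase and glutathione peroxidase. The counts below therefore cover only a part of the pathway. Over all 6 arrays 0 of the 14 passed in limma. Without TNT replicate 2, 1 rose (ATMDAR2), 0 fell and 13 did not pass, in a comparison where 7.36% of all tested probe sets were called. The 12 genes other than ATMDAR2 and GR1 had a median log2 difference of -0.03 over all 6 arrays, against -0.01 over all tested probe sets, and their differences lay between -0.35 and 0.24.

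Of the 8 ascorbate peroxidase genes listed, only 2 had a probe set of their own, both of the plastid. Their log2 differences were of opposite sign, but neither passed, and a difference between them was not tested. SAPX (AT4G08390), the stromal form, had DMF signals of 274, 291 and 348 and TNT signals of 364, 310.2 and 406, by replicate number. Its log2 difference was 0.24 (95% interval -0.15 to 0.63; adjusted p = 0.734). TAPX (AT1G77490), the thylakoid form, had DMF signals of 198, 127 and 184 and TNT signals of 106, 168 and 138, and a log2 difference of -0.31 (95% interval -0.86 to 0.24; adjusted p = 0.763). Leaving out TNT replicate 2 moved TAPX to -0.46 (adjusted p = 0.291) and SAPX to 0.35 (adjusted p = 0.259). Without both arrays numbered 2, TAPX stood at -0.66 (95% interval -1.08 to -0.24; adjusted p = 0.0643), while its difference in pair 2 was 0.40. In both genes the groups overlapped.

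Of the 4 genes of ascorbate synthesis with a probe set, none passed, and 3 had log2 differences under 0 over all 6 arrays, where 47.8% of all tested probe sets lay above 0. GME (AT5G28840), the GDP-mannose epimerase at the start of the branch to ascorbate, had DMF signals of 612, 680.4 and 639 and TNT signals of 389, 668 and 497, by replicate number. TNT replicates 1 and 3 lay under every DMF array and TNT replicate 2 inside the DMF range, the arrays that also divided for ATMDAR2. Its log2 difference was -0.35 over all 6 arrays (limma adjusted p = 0.682). Leaving out TNT replicate 2 gave -0.55 (95% interval -0.92 to -0.18; adjusted p = 0.083).

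GLDH (AT3G47930), the mitochondrial enzyme of the last step to ascorbate, lay lower on every TNT array than on any DMF array. Its DMF signals were 153, 138 and 151 and its TNT signals 129, 104 and 127, by replicate number. The log2 difference was -0.30 (95% interval -0.66 to 0.06; adjusted p = 0.627). It shrank to -0.20 when TNT replicate 2 was left out (adjusted p = 0.481). Among tested probe sets, 6.07% had every TNT array below every DMF array. VTC4 (AT3G02870), an inositol monophosphatase family enzyme that also acts on galactose 1-phosphate, and AT4G33670, galactose dehydrogenase, had log2 differences of -0.05 and 0.02, and of -0.19 and -0.02 without TNT replicate 2.

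Enzymes that supply NADPH, the electron donor of glutathione reductase, were close to 0 over all 6 arrays. The 4 genes were the 6-phosphogluconate dehydrogenases AT1G64190, AT3G02360 and AT5G41670 and the cytosolic isocitrate dehydrogenase cICDH (AT1G65930), with log2 differences of 0.18, 0.05, -0.04 and -0.01. Without TNT replicate 2 all 4 were above 0, between 0.10 and 0.37, as were 46.3% of all tested probe sets, and none passed. Without both arrays numbered 2, 3 of the 4 were above 0, with AT5G41670 at -0.02 and cICDH at 0.02. NTRC (AT2G41680), a plastid thioredoxin reductase that draws on NADPH too, had a log2 difference of -0.20 (limma adjusted p = 0.789), and of -0.36 without both arrays numbered 2 (adjusted p = 0.152).

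**Figure D3:**
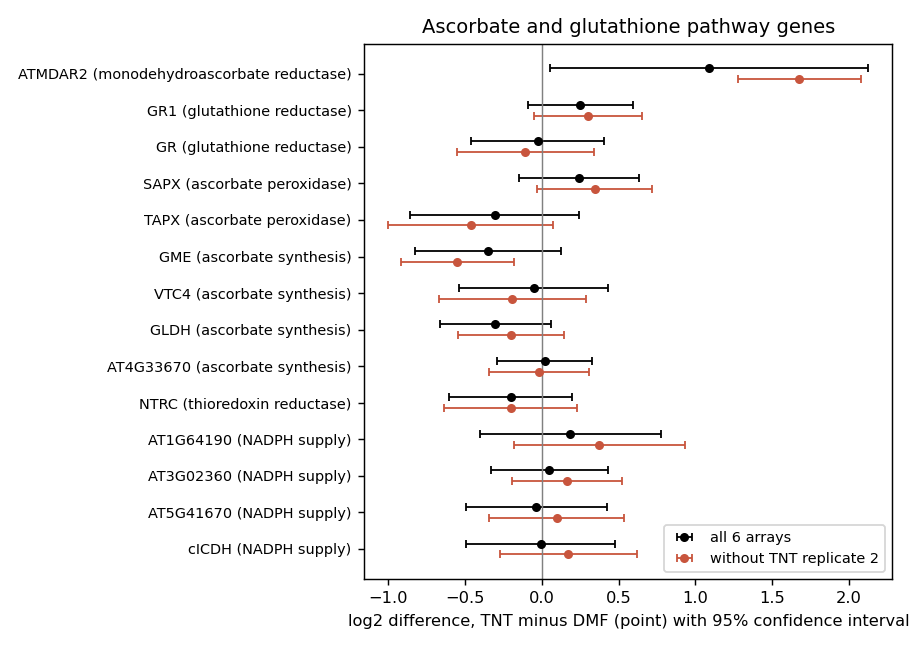
Log2 difference between TNT and DMF (points) with its 95% confidence interval (bars) for the 14 pathway genes with a probe set of their own, over all 6 arrays (black) and without TNT replicate 2 (red). ATMDAR2 stands at 1.09 and 1.68, and the other 13 lie between -0.55 and 0.37 in either comparison.

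The genes whose profiles came nearest to those of the members were found among 1058 other tested probe sets of 1 gene with a symbol, by the root mean square difference over the 6 arrays after each profile had been centred on its own mean log2 signal. For ATMDAR2 they were CCOAMT (AT1G67980), a caffeoyl-CoA O-methyltransferase family gene, at 0.16, LPR1 (AT1G23010), a multicopper oxidase of the root response to low phosphate, at 0.21, and UBC16 (AT1G75440), a ubiquitin-conjugating enzyme, at 0.21. IVD (AT3G45300), the mitochondrial isovaleryl-CoA dehydrogenase of leucine breakdown, and the dehydrin LTI30 (AT3G50970) followed, both at 0.23. The median distance to ATMDAR2 was 0.87.

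On the log2 scale UBC16 stood at 6.58, 5.88 and 6.34 in DMF replicates 1, 2 and 3 and at 7.93, 6.45 and 7.84 in the TNT samples. IVD stood at 7.13, 6.46 and 6.79 with DMF and at 8.28, 6.66 and 8.13 with TNT. CCOAMT and LPR1, the nearest by distance, had the lowest signals of the 5. CCOAMT stood at 4.70 in DMF replicate 2 and 4.72 in TNT replicate 2, and LPR1 at 4.26 and 4.12. In all 5 genes TNT replicates 1 and 3 lay above every DMF array, a property that the choice of near profiles favours.

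The profile of GR1 varied little, and many others lay near it, with 371 of the 1058 within 0.25 of it against 5 for ATMDAR2. The nearest were NRPB6A (AT5G51940), a subunit of RNA polymerases, at 0.06, ETFALPHA (AT1G50940), of the mitochondrial electron transfer flavoprotein, and UBC27 (AT5G50870), a ubiquitin-conjugating enzyme, both at 0.07. PUB49 (AT5G67530), a U-box protein, and ADCL (AT5G57850), an aminodeoxychorismate lyase of folate synthesis, were also at 0.07. Their log2 differences over all 6 arrays lay between 0.17 and 0.26, beside 0.25 for GR1, a likeness that the choice of near profiles favours.

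**Figure D4:**
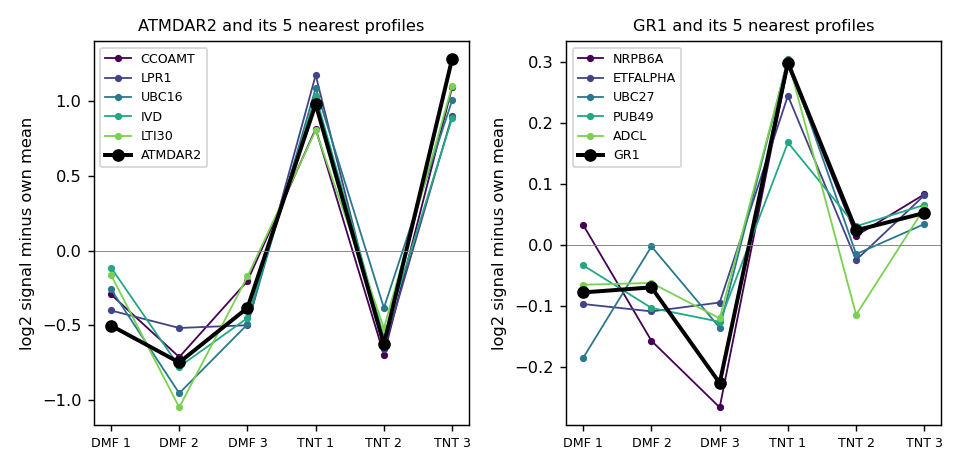
Log2 signal minus the gene's own mean over the 6 arrays, for ATMDAR2 (left) and GR1 (right) in black and the 5 nearest profiles of each in colour, with the lines joining arrays only to guide the eye and the vertical scales unequal. TNT replicates 1 and 3 stand above all DMF arrays for ATMDAR2 and its neighbours, and TNT replicate 1 is the highest array for GR1 and its neighbours.

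**Figure D5:**
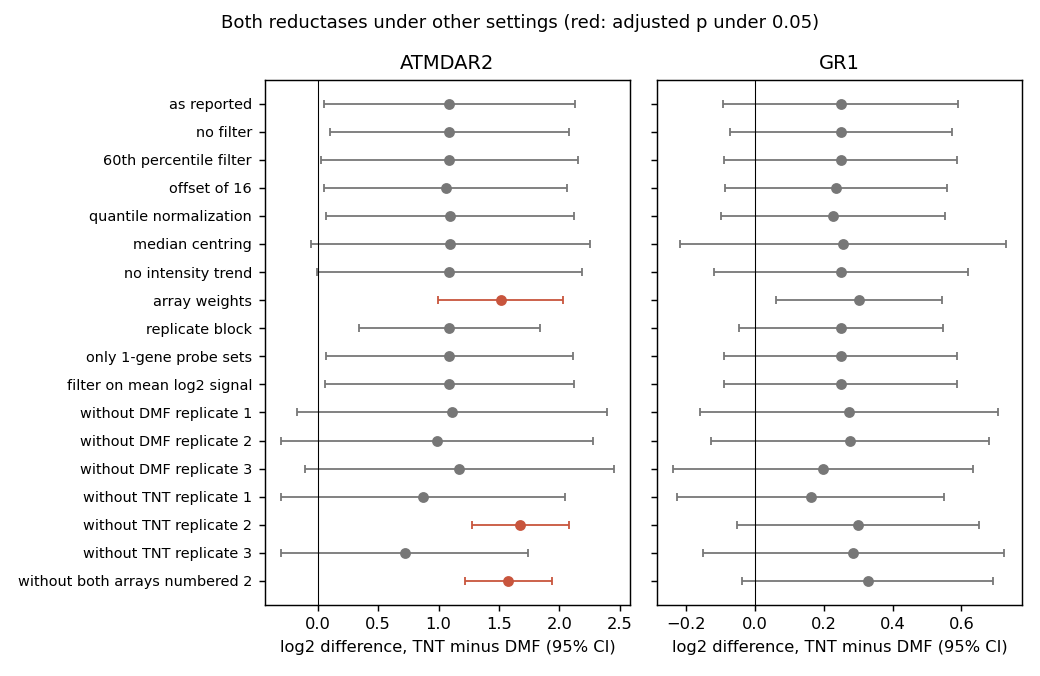
Log2 difference between TNT and DMF (points) with its 95% confidence interval (bars) for ATMDAR2 and GR1 under each setting of the 6-array comparison, in red where the limma adjusted p was under 0.05, with unequal horizontal scales. ATMDAR2 ranges from 0.72 to 1.68 and GR1 from 0.16 to 0.33, above 0 in every setting drawn.

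The settings drawn side by side kept the sign of both genes. ATMDAR2 passed with array weights, without TNT replicate 2 and without both arrays numbered 2, and in none of the other 14 alternatives. GR1 passed in none of the 17. Without TNT replicate 3 the log2 difference of ATMDAR2 was 0.72 (1.65-fold), and without TNT replicate 1 it was 0.87 (1.83-fold), with adjusted p-values of 0.999 in both.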

How the data were processed

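The authors deposited 1 linear intensity value per probe set and array, the MAS5 signal from GCOS software, as the submitters' processing notes name them; versions and a genome build are not given in the sources used here. Each array's mean without its top and bottom 2% was 100.01, so arrays had been scaled before deposit, and a change in total RNA cannot show.

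Of 22810 probe sets, 64 controls were left out; 13513 of the rest had 1 gene, 503 several, and 8730 were unnamed here. Gene symbols follow the RefSeq table of assembly TAIR10.1, matched by gene identifier. Whether probes also match related genes was not examined. Tests used log2 signals with no offset. The 13648 probe sets whose mean signal reached the 40th percentile were tested with limma 3.58.1 in R 4.3.3 (lmFit, eBayes with an intensity trend, two-sided, Benjamini-Hochberg, threshold 0.05). The fit had first been tried on simulated data. Over all 6 arrays it called 0.75% of probe sets given a 1.5-fold shift, 20.7% at 2-fold and 80.9% at 4-fold. Without TNT replicate 2 those shares were 0.52%, 18.2% and 82.0%. Most simulated shifts of up to 2-fold were thus missed, and a gene that did not pass may still have changed. Each run changed 200 probe sets, with noise drawn independently for each probe set and array. Every simulated TNT array carried the full shift, and none stood apart as TNT replicate 2 did. The shares may therefore be too high for the real arrays. Only 3 arrays per group limit the precision.

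Members and lists were chosen with earlier results of these data known. Named were both members, list genes with a probe set of their own (those called and up to 4 per list by p), and the 5 nearest profiles of each member. Replicate numbers come from the sample titles; 1 TNT title has none and was called 1 from its sample code. The numbers were taken to pair the samples. Deviations from the group means correlated at 0.54, 0.47 and 0.42 for numbers 1, 2 and 3. Unlike numbers were not compared in this way. On log2 signals, DMF replicates 1 and 3 correlated more with TNT replicate 2 (0.930 and 0.944) than with their own numbers (0.919 and 0.917). The labels do not say that samples of like number were paired. Alternatives were other filters, an offset, other normalizations, no trend, array weights, the replicate block, 1-gene probe sets and single arrays left out; a filter on mean log2 signal was added after seeing the data.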

Additional observations from a re-analysis of the deposited data

How the results depend on the processing

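Over all 6 arrays the log2 difference of ATMDAR2 was 1.09 with the replicate block as without it. It was 1.51 with array weights and 1.57 without both arrays numbered 2, and from 0.72 to 1.68 with single arrays left out; of these it passed with the weights, without both arrays numbered 2 and without TNT replicate 2. GR1 lay between 0.16 and 0.30 with single arrays left out. The number of probe sets called was 0 in limma in 9 of the 11 alternatives that leave out no single array, and it was 2949 with array weights, 1443 without both arrays numbered 2, and 0 to 1004 with single arrays left out, with 3 of them without DMF replicate 2 and 1004 without TNT replicate 2. With the replicate block 0 were called and 2323 had an unadjusted p under 0.05. Without TNT replicate 2, the log2 difference over 15 alternatives was 1.52 to 1.83 for ATMDAR2 and 0.18 to 0.42 for GR1. In the alternatives that kept both other TNT arrays, ATMDAR2 always passed (limma adjusted p up to 0.00622) and GR1 never did. All of them leave out the array that was dropped because of its values, so the caution on the p-value applies to them too. The lowest adjusted p of ATMDAR2, 2.78e-07, came with the replicate block. GR1 came nearest to the threshold with the replicate block (adjusted p = 0.0501), a fit with 1 residual degree of freedom. The 1004 calls of that comparison became 3801 with the replicate block, 2950 with array weights, 430 with 1-gene probe sets, and 186 to 1443 with a further array left out: 432 without DMF replicate 3, 186 without TNT replicate 1 and 203 without TNT replicate 3, where the lone TNT array left takes its spread from the DMF arrays. The gap between both genes' changes ranged from 0.44 without TNT replicate 3 to 1.38 without TNT replicate 2, with exact permutation p-values of 0.6 and 0.1, and its block value was 0.84 (exact sign-flip p = 0.25, the smallest that 3 pairs allow). The cause of these shifts was not tested.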
